A study of Homo sapiens with 2 samples.

Results

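Cytokine receptors of the blood-forming lineages pass their signal to the nucleus through the JAK-STAT pathway. A ligand brings receptor chains together, JAK kinases on the receptor tails phosphorylate the receptor and the STAT proteins, and the STATs enter the nucleus and bind DNA. SOCS2 and CISH belong to the suppressor of cytokine signaling family, whose genes are induced by STATs and whose proteins dampen the same receptors. In early lymphoid and stem cells, KIT, FLT3 and IL7R are the receptors best known for supporting survival and growth, and the IL-7 receptor acts through JAK1 and STAT5.

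The 3D contacts of 10 genes of this pathway were described in the TCF3::HLF-HiChIP map of TCF3-KO HAL-01 cells. The genes are the receptors FLT3, KIT and IL7R, the kinases JAK1 and JAK2, the transcription factors STAT3, STAT5A and STAT5B, and the inhibitors SOCS2 and CISH. HiChIP joins chromatin immunoprecipitation with chromosome conformation capture, so that a read pair reports 2 DNA segments that lay close together on chromatin pulled down with a protein. HAL-01 is a leukemia cell line with the t(17;19) translocation, whose product TCF3::HLF carries the DNA-binding domain of HLF. The cells stably express Cas9GFP, and the wild-type TCF3 allele was knocked out with a guide RNA and the cells expanded as a clone, so that an antibody to E2A (TCF3) precipitates the fusion protein. There were 2 replicates of this one condition, with no untreated, parental or control sample in the interaction list. The reads of both replicates were merged before interactions were called, so each interaction has 1 value, no error between replicates can be given, and no test between samples was possible. The pulldown selects for chromatin bound by the antibody's target, and the share of read pairs from other chromatin was not measured here. A contact that is not listed may still exist.

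An interaction was assigned to a gene when either of its 5-kb bins overlapped the gene body (GENCODE release 44, hg38) or the 10 kb on each side, called the window here. This gave 59 interactions of the 49245 in the list, between 75 distinct bins. The windows of STAT3, STAT5A and STAT5B lie side by side on chromosome 17, and 5 interactions fell in 2 windows, so the counts per gene add up to 64. The contact count of an interaction is the number of read pairs that join its bins. The 59 interactions held 1487 of the 1268490 read pairs in the list, with 12 to 49 each, and their median of 26 (95% interval of the median 20 to 29) stood beside 24 over all interactions. Intervals given below for a contact count are exact Poisson 95% intervals, which cover counting error only, and duplicate read pairs had not been removed. The p-value and q-value of an interaction are those of FitHiChIP, which sets the contact count against a background fitted to bin coverage and distance, and every listed interaction had a q-value under 0.01.

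The fusion protein binds the HLF motif, taken here as an exact TTACGTAA or TTATGTAA on either strand (the second reads TTACATAA on the other strand). At the 10 genes the motif was found 27 times in 22 of the 75 bins (29.3%), a share close to the 31.5% of all 53535 bins in the list. It lay in 18 of the 43 bins outside the windows and in 4 of the 32 bins inside them. Those 4 lay in the windows of JAK1, JAK2, SOCS2 and FLT3, and no bin inside a STAT window held the motif. The motifs below are some of those in bins of the interactions described for each gene. They are shown because they are places in these contacts where the sequence fits the fusion protein's binding domain. Each is printed from the plus strand of hg38 with the motif in capitals and 10 bases on each side, and no binding is implied by a match.
FLT3 intron, chr13:28080576-28080603: cctttatcacTTATGTAAttggcaaata
PAN3 intron, partner of FLT3, chr13:28257304-28257331: ggattccatgTTACGTAAattgtacctt
PAN3 intron, partner of FLT3, chr13:28268328-28268355: atattgttctTTATGTAAttatttccct
outside coding genes, partner of KIT, chr4:54930381-54930408: acaatgcatcTTACATAActgtggctat
outside coding genes, partner of IL7R, chr5:35819765-35819792: tttagagaagTTACGTAActtacccaaa
JAK1 intron, chr1:65036796-65036823: caatggactaTTATGTAAtcattacagt
PDCD1LG2 intron, partner of JAK2, chr9:5517204-5517231: tcttgcaattTTACATAAgacagtctca
KDM4C intron, partner of JAK2, chr9:7124129-7124156: ctgacgagggTTATGTAAcacccccaag
outside coding genes, partner of STAT5A and STAT5B, chr17:42645360-42645387: ctcagtttgaTTACGTAAcatctagcat
PTGES3L intron, partner of STAT3, chr17:42975497-42975524: tgctagtgtgTTATGTAAcggatctcaa
CRADD intron, partner of SOCS2, chr12:93773150-93773177: gcaatatgtcTTACGTAAgtcagagtag
DOCK3 intron, partner of CISH, chr3:50934292-50934319: ctggaatatgTTACATAAcaccagggat

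All 10 genes had at least 1 interaction in their window, against 64.5% of the 19970 protein-coding genes measured the same way. JAK1 and STAT3 had 18 each, a number that 4.04% of protein-coding genes reached. FLT3 had 7, SOCS2 6, STAT5A 5, JAK2 and STAT5B 3 each, IL7R 2, and KIT and CISH 1 each. The median protein-coding gene had 1. The order of the genes depended on the margin, and with 50 kb on each side IL7R had 14, FLT3 17, STAT5B 12 and STAT5A 9, against 24 for STAT3 and 21 for JAK1. With no margin STAT3 had 13 and JAK1 18. Long windows can hold more interactions. Per 100 kb of window STAT3 had 18.9 interactions and SOCS2 17.8, and 4.53% and 5.06% of protein-coding genes were at least as dense. STAT5A followed with 11.3 and JAK1 with 7.07, and 10.6% and 19.4% of protein-coding genes were at least as dense. JAK2 (1.81) and KIT (0.966) lay below the median of 2.23 per 100 kb. Since interactions under 50 kb were not called, the 4 genes with windows shorter than that (IL7R, STAT5A, SOCS2 and CISH) could have no listed contact within their own window.

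**Figure D1:**
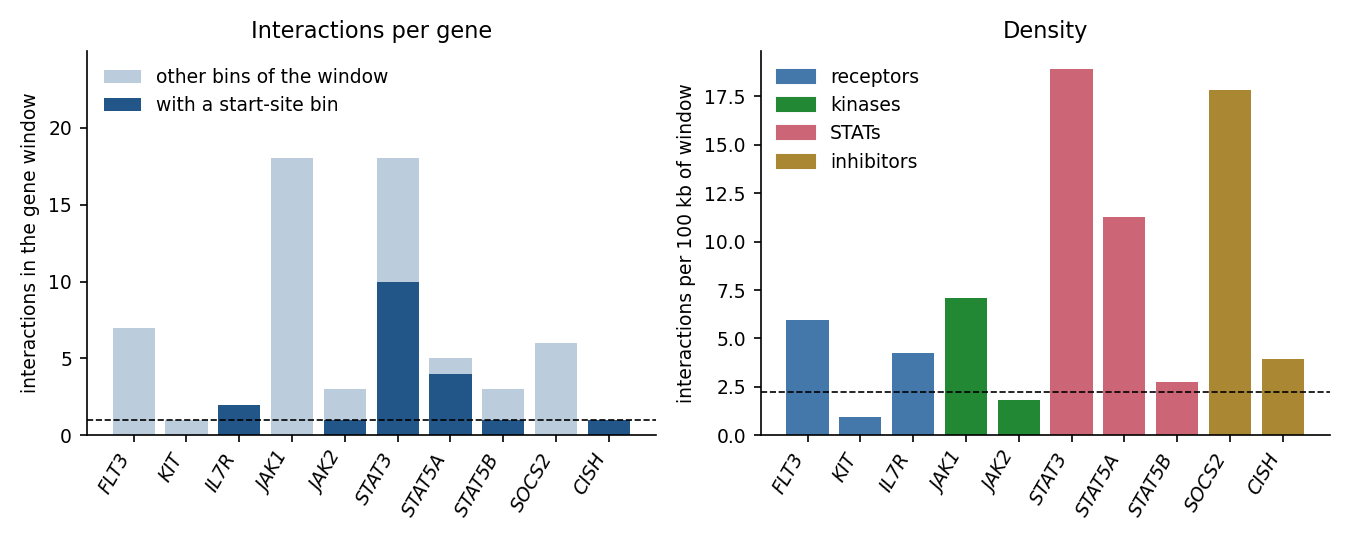
Number of interactions in the window of each gene, with those at a start-site bin in dark blue (left), and interactions per 100 kb of window coloured by role (right). Dashed lines mark the medians over all protein-coding genes, 1 interaction and 2.23 per 100 kb, and STAT3 and JAK1 stand highest by number, STAT3 and SOCS2 by density.

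A start-site bin holds an annotated transcript start of the gene. Of the 59 interactions, 18 had such a bin, and they belonged to 6 of the 10 genes (IL7R, JAK2, STAT3, STAT5A, STAT5B and CISH), against 26.6% of protein-coding genes. STAT3 alone had 10 of the 18. Genes with more annotated starts can have more start-site bins, from 1 for CISH to 8 for STAT5B, and the 26.6% was not matched for this. The annotation holds short and alternative transcripts, and not all of these bins are the main start. For IL7R the bin held 1 of 10 transcript starts and lay 24.8 kb into the gene, and for JAK2 it held 1 of 4 and lay 143 kb into the gene. With the start of the gene record alone, 4 genes remained (STAT3, STAT5A, STAT5B and CISH), against 13.5% of protein-coding genes. These are not separate contacts of main starts. STAT5A and STAT5B counted through 1 shared bin with 1 interaction, which holds 2 of the 30 STAT5B starts. The CISH bin also holds a start of MAPKAPK3. FLT3, KIT, JAK1 and SOCS2 had no interaction in a bin that itself holds a start. This depended on the definition: with bins within 10 kb of an annotated start, 43 interactions and all 10 genes counted, against 55.1% of protein-coding genes.

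Contact count falls with distance, so each count was also divided by the median contact count of all interactions at the same distance. This ratio had a median of 1 at the 10 genes (95% interval 0.870 to 1.17) and ranged from 0.545 to 2. The Poisson interval lay above the same-distance median for 9 of the 59 interactions (15.3%) and below it for 4 (6.78%), against 15.0% and 5.80% of all interactions. As a group these contacts were thus close to the list as a whole in strength. The distances had a median of 210 kb, against 255 kb over the list, and 7 of the 59 spanned more than 1 Mb.

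**Figure D2:**
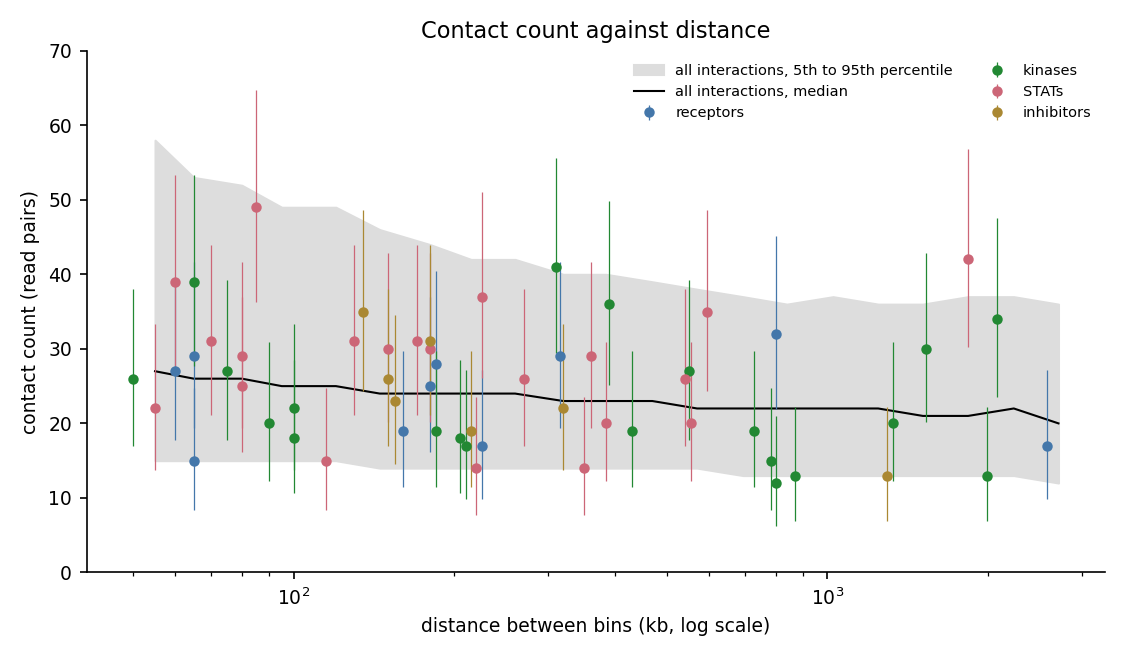
Contact count in read pairs of each of the 59 interactions against the distance between its bins on a log scale, with exact Poisson 95% intervals, coloured by the role of the gene. The line and grey band give the median and the 5th to 95th percentile of all 49245 interactions, and the STAT3 interaction with 42 read pairs at 1.835 Mb lies above the band, while most points lie inside it.

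The receptor FLT3 (chr13:28003274-28100592, minus strand) had 7 interactions, each with a bin in the gene body. FLT3 is the receptor tyrosine kinase for FLT3 ligand in early blood progenitors. Of these interactions 4 used the intronic bin chr13:28080001-28085000, whose motif is printed above and which lies 18.1 kb from the gene's start. From this bin, 29 read pairs (19.4 to 41.6) reached chr13:28015001-28020000 near the end of FLT3, over 65 kb and with the gene's smallest p-value of 1.88e-13. Another 29 reached a bin in FLT1, the gene for a VEGF receptor, 315 kb away. From the same bin 28 (18.6 to 40.5) reached PAN3, 185 kb away, and 17 (9.90 to 27.2) reached USPL1 at 2.575 Mb.

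PAN3, the neighbour that encodes a subunit of a deadenylase trimming mRNA tails, was the partner in 4 of the 7 FLT3 interactions. Their contact counts were 15, 19, 25 and 28. The PAN3 bin with 15 read pairs (8.40 to 24.7) to FLT3, chr13:28140001-28145000, had 9 interactions in all, and its strongest contact, with 40 read pairs, stayed within PAN3. An HLF motif lay in at least 1 bin of 6 of the 7 FLT3 interactions, against 66.8% of all interactions. Of these 6, 4 share the motif bin chr13:28080001-28085000, so they are not separate occurrences. The median ratio of the 7 to the same-distance median was 1.

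KIT (chr4:54657267-54740783, plus strand), the receptor for stem cell factor, had a single interaction, the count that the median protein-coding gene has. It joined chr4:54705001-54710000 within the gene, 50.2 kb from its start, to an intergenic bin 225 kb farther along, at chr4:54930001-54935000. The partner bin lies 162 kb from the nearest protein-coding start, that of KDR, a VEGF receptor gene, and holds the HLF motif printed above. With 17 read pairs (9.90 to 27.2) and a q-value of 3.00e-05, the contact stood at 0.708 of the same-distance median of 24, and 86.1% of interactions at that distance had as many read pairs or more. The median lay within its counting interval.

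IL7R (chr5:35852695-35879603, plus strand) encodes the alpha chain of the IL-7 receptor, which lymphoid precursors carry. Its 2 interactions left the same bin, chr5:35875001-35880000, near the end of the gene. The longer one spanned 800 kb to a bin in PRLR, the prolactin receptor gene and another member of the cytokine receptor family. It held 32 read pairs (21.9 to 45.2) with a p-value of 2.43e-17, which was 1.45 times the same-distance median of 22, and 11.2% of interactions at this distance reached that count. The PRLR bin held 1 HLF motif and had 6 interactions, and the one with IL7R ranked 2 among them by contact count. The shorter interaction of IL7R reached the bin chr5:35815001-35820000, 60 kb away on the upstream side of the gene and outside coding genes, with 27 read pairs (17.8 to 39.3), equal to the same-distance median. That bin held 2 HLF motifs, 1 of them the palindromic form TTACGTAA, and had 6 interactions in all.

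JAK1 (chr1:64833223-65067754, minus strand), the kinase shared by many cytokine receptors, had 18 interactions with 12 to 41 read pairs. Both bins lay inside the window in 7 of them, so these are contacts within the gene. The largest number of transcript starts, 18 of 31, falls in chr1:64965001-64970000, which had no listed interaction, while the bins on either side of it had 3 and 2. The bin of the outermost start, with 8 of the 31, had none either, and the next intronic bin inward, chr1:65060001-65065000, had 7.

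The interaction of JAK1 with the smallest p-value and the most read pairs joined chr1:64985001-64990000 to CACHD1, a membrane protein gene 310 kb away. It held 41 read pairs (29.4 to 55.6) with a p-value of 1.93e-22, at 1.82 times the same-distance median of 22.5. Within the gene, chr1:64970001-64975000 and the intronic bin with the printed HLF motif, chr1:65035001-65040000, were joined by 39 read pairs (27.7 to 53.3) over 65 kb. That motif bin had 5 interactions, with 39, 27, 26, 19 and 19 read pairs. From chr1:65060001-65065000, 30 read pairs (20.2 to 42.8) reached SGIP1 over 1.53 Mb and 13 (6.92 to 22.2) reached a bin beside SLC35D1 at 1.995 Mb. A bin in PGM1, the gene for phosphoglucomutase, had 11 interactions, and the contact with JAK1, with 20 read pairs over 1.325 Mb, ranked 10 among them. The median ratio of the JAK1 interactions was 0.836. A q-value under 1e-05 was reached by 10 of the 18, against 66.5% of all interactions. Of the 59 interactions at the 10 genes, 42 reached it, and whether JAK1 differs from the list in this was not tested.

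JAK2 (chr9:4984390-5129948, plus strand), the kinase of the erythropoietin and growth hormone receptors, had 3 interactions. Of these 2 ended in the same bin of PDCD1LG2, chr9:5515001-5520000. PDCD1LG2 encodes PD-L2, a ligand of the PD-1 receptor. The bin at the end of JAK2, chr9:5125001-5130000, shared 36 read pairs (25.2 to 49.8) with it over 390 kb, with a p-value of 1.82e-19 and a ratio of 1.57. The bin chr9:5085001-5090000 shared 19 (11.4 to 29.7) over 430 kb, below the same-distance median of 23. The PDCD1LG2 bin holds an HLF motif, and the contact with the end of JAK2 ranked 1 among its 6 interactions. The bin at the end of JAK2 had 2 HLF motifs of its own, both in the last exon of JAK2. This is thus 1 of the 3 interactions at the 10 genes with a motif on both sides. Such interactions were 5.08% of the 59, against 16.2% of all interactions. The bin at the end of JAK2 also lies within INSL6, a gene of the insulin family. The remaining interaction reached a bin in KDM4C, a histone demethylase gene, 2.075 Mb away with 34 read pairs (23.5 to 47.5), at 1.58 times the same-distance median. No interaction used the bins at the main start of JAK2.

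STAT3 (chr17:42313324-42388540, minus strand), which carries signals of the IL-6 family, had the most contacts at its start. The bin chr17:42385001-42390000 holds 39 of the 50 annotated STAT3 transcript starts and had 8 interactions. The 5 with the smallest p-values had 42, 37, 30, 26 and 20 read pairs. The longest of all STAT3 interactions joined this bin to CCR7, a chemokine receptor gene that guides lymphocytes to lymph nodes, over 1.835 Mb. It held 42 read pairs (30.3 to 56.8) with a p-value of 8.39e-26, a ratio of 2 to the same-distance median of 21, and 2.78% of interactions at that distance reached this count. The CCR7 bin, chr17:40550001-40555000, had no other listed interaction and no HLF motif.

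From the same STAT3 start bin, 37 read pairs (26.1 to 51.0) reached the potassium channel gene KCNH4 over 225 kb and 30 (20.2 to 42.8) reached the shared start bin of COASY and MLX over 180 kb. An intergenic bin 540 kb away with an HLF motif had 26 (17.0 to 38.1), and the start bin of NT5C3B, a nucleotidase gene, had 20 (12.2 to 30.9). The bin next to the STAT3 start bin, in the gene's intron, shared 35 read pairs (24.4 to 48.7) with the start bin of PTGES3L over 595 kb. The PTGES3L bin holds the motif printed above and had 11 interactions, and the one with STAT3 ranked 1 among them by contact count. The highest contact count at any of the 10 genes, 49 read pairs (36.3 to 64.8; p-value 2.71e-27), joined chr17:42320001-42325000, near the end of STAT3, to CAVIN1, a gene of caveolar coat proteins, over 85 kb. This was 1.88 times the same-distance median of 26, and the STAT3 bin also falls in the window of STAT5A.

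STAT5A (chr17:42287547-42311943, plus strand) and STAT5B (chr17:42199176-42288633, minus strand) encode closely related factors that act downstream of IL-7 and of many other cytokines. The genes run in opposite directions and share the bin chr17:42285001-42290000, which holds 11 of the 15 STAT5A transcript starts and 2 of the 30 STAT5B starts. It had 1 interaction, 29 read pairs (19.4 to 41.6) over 360 kb to the intergenic bin chr17:42645001-42650000 with the palindromic HLF motif printed above, 9.28 kb from TUBG2. This contact stood at 1.21 times the same-distance median and ranked 1 of the 6 interactions of its partner bin. The bin with 19 of the 30 STAT5B starts had no interaction. The bin chr17:42305001-42310000, near the end of STAT5A, had 3 interactions, with 31 and 30 read pairs to ATP6V0A1 and 14 to TUBG2. STAT5B had 2 more interactions, with 26 read pairs from its downstream flank to ATP6V0A1 and 15 from its intron to a bin over RAB5C.

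The bin at the start of ATP6V0A1, which encodes a subunit of the vacuolar proton pump, was the most connected partner of the STAT genes. This bin, chr17:42455001-42460000, had 16 interactions, and 5 of them ended in a STAT window. Their contact counts were 39 from the upstream flank of STAT3, 31 and 29 from the body of STAT3, 30 from the end of STAT5A and 26 from the flank of STAT5B. The strongest contact of the bin, with 104 read pairs, was with ATP6V0A1 itself, and the 39 with the STAT3 flank ranked 4 of 16. The other 11 interactions of this bin reached bins outside the STAT windows, among them bins in NAGLU, TOP2A and IKZF3, so the bin's contacts were not limited to the STAT genes. No interaction joined the start bin of STAT3 to that of STAT5A and STAT5B, and no interaction joined the windows of different genes among the 10 other than through a bin that 2 windows share.

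**Figure D3:**
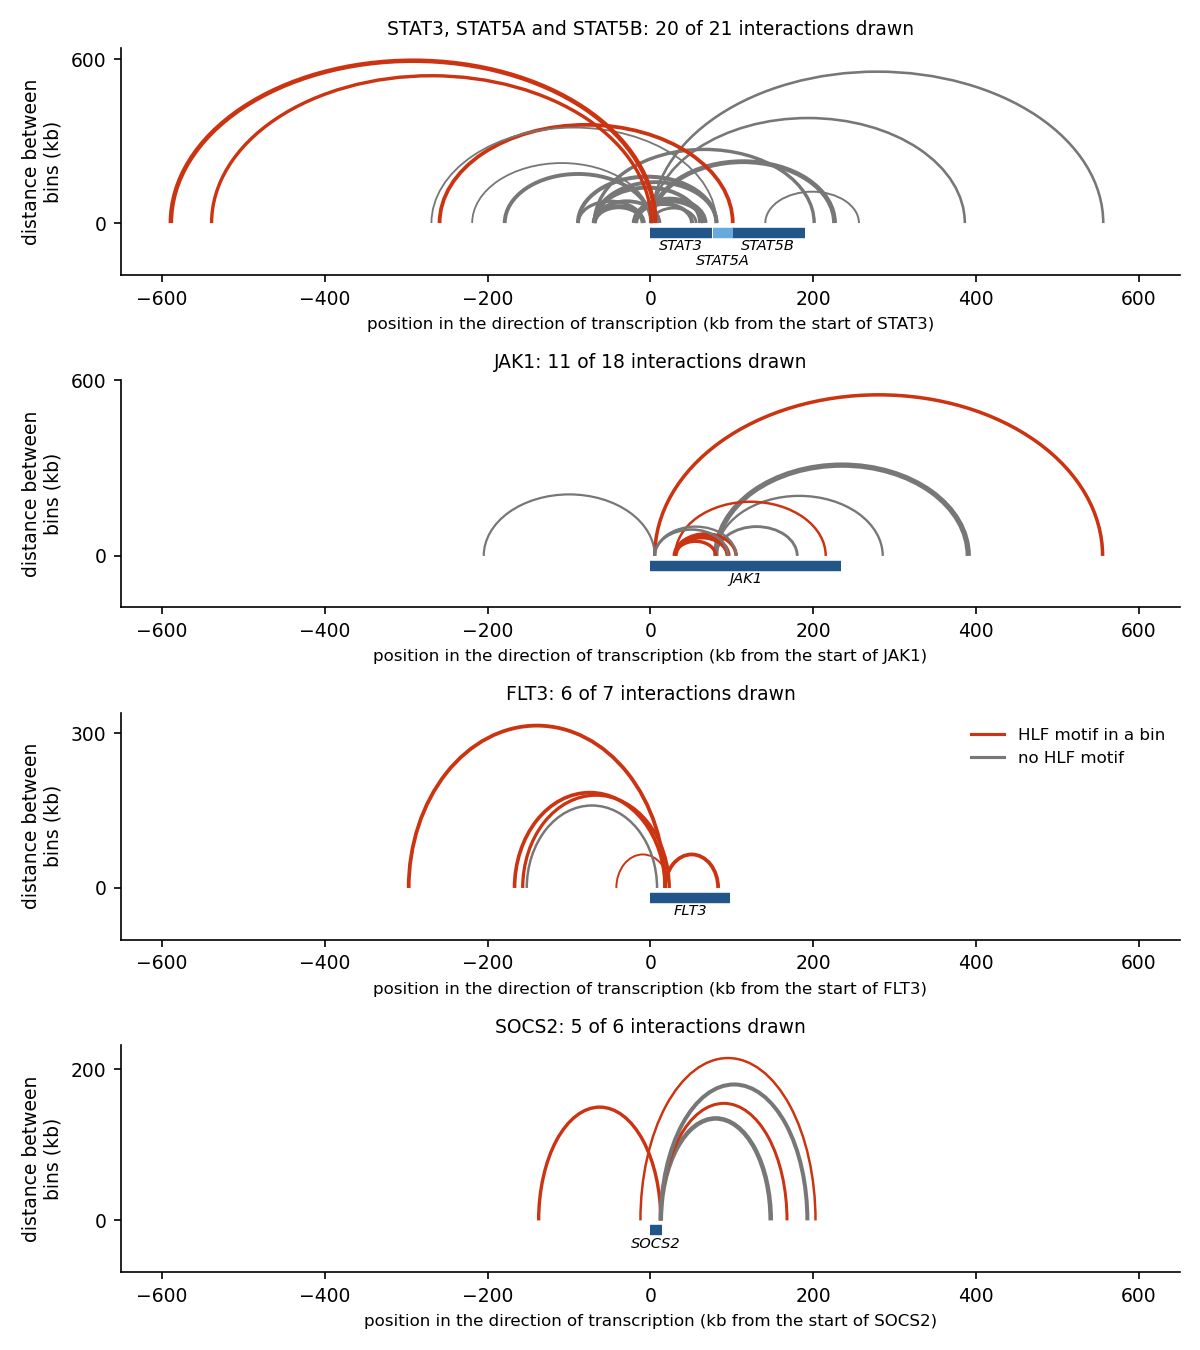
Interactions of the STAT genes, JAK1, FLT3 and SOCS2 as arcs between bin centres, with position in kb from the start of the named gene in its direction of transcription and height equal to the distance between the bins in kb. Line width follows the contact count, red arcs have an HLF motif in a bin, blue bars are the genes, and interactions over 600 kb are not drawn. Most STAT arcs are grey, and 7 of the 18 JAK1 interactions have a motif. FLT3 has one in 6 of 7 interactions and SOCS2 in 4 of 6.

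SOCS2 (chr12:93569814-93583487, plus strand), an inhibitor of growth hormone and other cytokine signals, had 6 interactions in a window of 33.7 kb. Of these 5 left the bin chr12:93580001-93585000 at the end of the gene, while the bin with 10 of the 12 transcript starts had none. The neighbouring gene CRADD, which encodes a death-domain adaptor protein, was the partner in 4 of the 6. From the SOCS2 bin 35 read pairs (24.4 to 48.7; p-value 2.10e-15) reached CRADD over 135 kb, at 1.40 times the same-distance median, and 31 reached it over 180 kb. The interaction over 180 kb was the only 1 of the 59 that belonged to a merged group of neighbouring bin pairs, which held 50 read pairs together. Single bin pairs made up 98.3% of the 59, against 92.3% of all interactions. On the other side 26 read pairs (17.0 to 38.1) reached a bin in UBE2N, a ubiquitin-conjugating enzyme gene, over 150 kb, and that bin held 2 HLF motifs. Upstream of SOCS2, a bin over the antisense transcript SOCS2-AS1 shared 19 read pairs (11.4 to 29.7) with a CRADD bin that had 11 interactions, both bins with an HLF motif. This contact ranked 9 of the 11.

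CISH (chr3:50606489-50611774, minus strand), an inhibitor induced by STAT5, had 1 interaction, and it left the bin that holds all 3 of its annotated starts. That bin, chr3:50610001-50615000, also holds a start of MAPKAPK3, which runs the other way, so the contact cannot be given to either gene alone. It reached a bin in DOCK3, a gene for an activator of small GTPases, 320 kb away, with 22 read pairs (13.8 to 33.3) and a q-value of 9.13e-08, near the same-distance median of 23. The DOCK3 bin holds the motif printed above and had 5 interactions, of which the one with CISH ranked 3.

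STATs bind the palindromic motif TTCNNNGAA, which reads the same on both strands. It occurred in 59 of the 75 bins at the 10 genes (78.7%) and in 80.9% of all bins in the list, a difference within its counting interval (68.1 to 86.4). In the 250 bases before a gene start it is less common, in 6.57% of 35116 RefSeq promoter sequences of that length (GRCh38.p14), and an HLF motif in 0.940%. RefSeq promoters were found for 9 of the 10 genes, 16 sequences in all, and none had an HLF motif. CISH alone held TTCNNNGAA, with 4 matches, a number that 5 of the 35116 promoters reached. They start 241, 230, 129 and 112 bases before the CISH start, and the farther pair lies in the first exon of MAPKAPK3 transcripts. The 133 bases next to the CISH start are shown because they are the part of the contacting CISH bin with the nearer pair, in capitals, 5′ to 3′ on the minus strand of chr3:50611775-50611907.
CISH promoter: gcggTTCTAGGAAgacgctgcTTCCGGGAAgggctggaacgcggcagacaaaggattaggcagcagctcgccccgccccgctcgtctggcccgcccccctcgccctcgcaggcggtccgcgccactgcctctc

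The STAT genes differed from the other 7 in what their contacts joined. An HLF motif lay in a bin of 3 of the 21 STAT interactions (14.3%, Wilson 95% interval 4.98 to 34.6) and of 24 of the other 38 (63.2%, 47.3 to 76.6), against 66.8% of all interactions. Over all 59 the share was 45.8% (33.7 to 58.3). The other 7 genes were unlike each other in this. JAK1 had the motif in 7 of 18 interactions, FLT3 in 6 of 7 and SOCS2 in 4 of 6. All interactions of JAK2 (3), IL7R (2), KIT (1) and CISH (1) had one. A protein-coding start lay in a bin of 20 of the 21 STAT interactions (95.2%) and of 4 of the other 38 (10.5%), against 24.0% of the list. A start lay in both bins of 10 of the 21 (47.6%) and of 0 of the 38, against 2.48%. The STAT interactions share bins and a neighbourhood and are not independent of each other, so these intervals, which count each interaction as independent, are too narrow. The STAT bins also had a higher G+C content, with a median of 47.3% over 26 bins against 40.0% over the other 49 and 41.1% over all bins in the list. The part of base composition and of gene density in the motif shares was not tested.

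**Figure D4:**
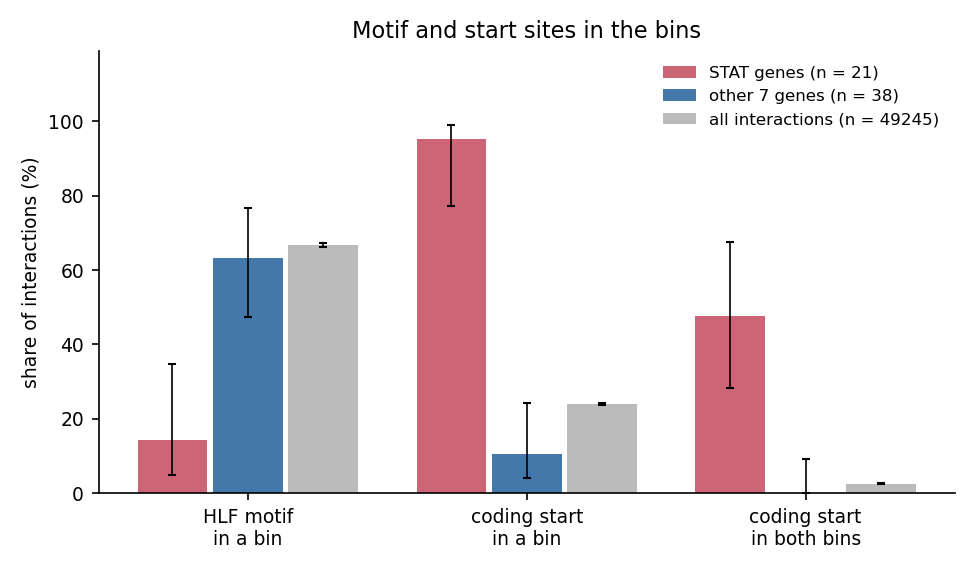
Share of interactions in percent with an HLF motif in a bin, with a protein-coding start in a bin and with a start in both bins, for the STAT genes, the other 7 genes and the whole list, with Wilson 95% intervals. The STAT bars are low for the motif (14.3%) and high for starts (95.2%). The other 7 genes pooled lie near the list for the motif (63.2% against 66.8%), with JAK1 lower at 7 of 18.

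Another 61 genes of the pathway were counted in the same way, from a list made by role. Of these, 44 (72.1%, Wilson 59.8 to 81.8) had an interaction in their window and 24 (39.3%) at a start-site bin, against the 64.5% and 26.6% of protein-coding genes given above. By role, 25 of 36 receptors, 12 of 15 inhibitors, 3 of 4 STATs and all 4 ligands had an interaction, and neither of the 2 other kinases, JAK3 and TYK2, did. Among the genes with the most were PIAS1, which encodes a SUMO ligase, with 16, and IL2RA, IL15RA and IL7 with 14 each. The median of the 61 genes was 2 interactions, against 4 for the 10 genes. The 17 genes with none included the receptors IL2RG, IL5RA, IL9R, IL10RA, IL11RA, IL27RA, CSF2RB, OSMR, EPOR and IFNGR1, the kinases JAK3 and TYK2, STAT6, and the inhibitors SOCS4, SOCS6 and PTPN6. IL2RG, JAK3 and CSF2RB, which work with the receptors of IL-7, IL-2 and IL-3, are among them. A count of 0 says that no contact passed the q-value threshold between 50 kb and 3 Mb. The smallest contact count listed was 7 below 500 kb and 10 above it.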

How the data were processed

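TCF3::HLF-HiChIP was done on 2 replicates of TCF3-KO HAL-01 cells with an MNase-based kit. The authors trimmed reads with Trim Galore 0.6.6, merged the replicates, aligned them to hg38 with BWA-MEM, extracted pairs with pairtools without removing duplicates, and ran FitHiChIP on 5-kb bins over distances of 50 kb to 3 Mb, using MACS2 peaks as reference and merging neighbouring contacts. The version of FitHiChIP is not given in the sources used here. The deposited contact counts are raw counts of read pairs per bin pair, with their sum over a merged group. The deposited p-value and q-value come from the FitHiChIP background of distance and coverage. The deposited fraction, which says how much of a merged group is itself significant, was not used for any result. An interaction was taken as a single pair where its summed count equalled its contact count. No reads were analysed here, and the depth of each replicate is unknown.

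From the list, windows, start-site bins, motifs and the same-distance median (bins of equal distance, widened to at least 200 interactions) were computed with Python 3.11.15, pandas 2.3.3 and scipy 1.17.1, and the code was tested on simulated data. All bins lay within hg38 chromosome ends. The 2 bins of an interaction shared at most 92 of their 31-mers, under the 500 set as near-identical. Shares have Wilson 95% intervals, medians order-statistic intervals.

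The genes, lists and alternatives were chosen with earlier results of these data known. Named in the text are all 10 genes and, for each, the interaction with the smallest p-value and with the most read pairs, those at start-site bins (up to 5), genes in partner bins, and bins with 10 or more interactions. Of the other pathway genes, the 5 with the most interactions and those with 0 were to be named, and some of these are not reported here. Further interactions were named after their values were seen. Alternatives changed the window, the thresholds, the start-site definition, the motif search and the distance correction.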

Additional observations from a re-analysis of the deposited data

How the results depend on the processing

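No paired analysis was possible because both replicates were merged before interactions were called, and for the same reason no replicate could be left out. Of 48 alternatives, 38 left the result within 1.5 times the count or within its 95% interval. A margin of 50 kb gave 90 interactions in the windows, and 95.1% of the other pathway genes then had one, against 84.3% of protein-coding genes at that margin. Merged groups of more than 1 bin pair left 1 interaction in the windows and 0 at a start-site bin. Of all interactions in the list, 92.3% were single bin pairs. Counting bins within 10 kb of a start gave 43 interactions at 10 genes, and the start of the gene record alone gave 10. With bins widened by 1 bin on each side, 66.1% of interactions held an HLF motif, against 90.4% of all interactions widened in the same way. Without the 3 STAT genes, an alternative added after seeing the data, that share was 63.2%, and 0% of interactions had protein-coding starts in both bins. A contact count of at least 20 or a q-value under 1e-05 left KIT with 0 interactions and the other 9 genes with at least 1, while JAK1 had 9 and 10 in place of 18 and FLT3 had 4 under both in place of 7. The median ratio to the same distance was 1 or 1.04 under every alternative run for it. Depth limits weak contacts most. A count of 12 has an interval from 6.20 to 21.0, so ranks among contacts of similar size are within counting error.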

Other observations

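Interactions that join the windows of 2 different genes among the 71 considered were looked for after the values had been seen. Besides the contact of IL7R with PRLR, they included contacts between neighbouring receptor genes. IL15RA and IL2RA, which encode receptor chains for IL-15 and IL-2, shared 52 read pairs (exact Poisson 95% interval 38.8 to 68.2) over 65 kb, with a p-value of 6.04e-31 and a ratio of 2 to the same-distance median of 26. In the interferon receptor cluster of chromosome 21, IFNAR2 shared 35 (24.4 to 48.7) with IFNGR2 over 255 kb and 20 (12.2 to 30.9) with IL10RB over 55 kb, and IFNAR1 shared 22 (13.8 to 33.3) with IFNGR2 over 90 kb. The interaction of IFNAR2 with IFNGR2 stood at 1.46 times the same-distance median of 24. Those of IFNAR2 with IL10RB and of IFNAR1 with IFNGR2 lay below their same-distance median of 26, at 0.769 and 0.846 times it. The share of neighbouring genes outside the pathway that have such a contact was not measured. Of the contacts given here, the one of IL7R with PRLR was the longest, at 800 kb.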
